A study of Homo sapiens with 8 samples.

Results

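The 82 genes described here encode the nuclear subunits of the 5 complexes of oxidative phosphorylation. They were taken by gene symbol, as every array probe whose platform annotation gives a symbol beginning with NDUFA, NDUFB, NDUFC, NDUFS, NDUFV, UQCR, ATP5 or COX4 to COX8, or the symbol SDHA, SDHB, SDHC or SDHD. Assembly factors, antisense genes and pseudogenes, 19 probes in all, were left out. This gave 82 of the 20046 genes named by the annotation, or 110 of the 47320 probes on the array. Complex I was covered by 36 genes, complex II by 3, complex III by 8, complex IV by 17 and complex V by 18.

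Gene expression had been profiled in 22Rv1, a human prostate carcinoma cell line, after passage through animals. The groups were the metastatic derivative M3-2, the metastatic derivative M3-1, a derivative of the primary tumour (PT) and the parental line 22Rv1-Luc2, with 2 single-colour Illumina bead arrays each. All 4 groups go back to the 22Rv1 line, and Luc2 in the parental name is taken here as a luciferase label. The labels give neither the meaning of M3 nor the site of a metastasis nor a number of animals. They also leave it unsaid whether replicate arrays stem from different cultures or animals, so the p-values cover array-to-array spread that may be technical.

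In the inner mitochondrial membrane, complex I takes electrons from NADH and complex II takes them from succinate. Both pass them to ubiquinone, complex III passes them on to cytochrome c, and complex IV hands them to oxygen. Complexes I, III and IV pump protons, and the ATP synthase, complex V, uses the gradient to make ATP. In the prostate this system is known for being restrained in normal secretory epithelium, which exports citrate, and for being more active in prostate carcinoma.

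The start regions of 3 subunit genes named in the results below are shown, and any link between sequence and level was not tested. NDUFV1 was the only subunit gene called changed. ATP5F1C had the lowest metastatic value relative to the parental line, and SDHD had the highest difference of M3-2 from M3-1. Neither of these was called. Each sequence is the 250 bases before the RefSeq gene start in GRCh38.p14, 5′ to 3′ on the plus strand. Capitals mark the core of the NRF1 motif (CGCATGCG) or an ETS motif (CCGGAAGT, here as ACTTCCGG on the other strand).
NDUFV1, chr11:67606686-67606935: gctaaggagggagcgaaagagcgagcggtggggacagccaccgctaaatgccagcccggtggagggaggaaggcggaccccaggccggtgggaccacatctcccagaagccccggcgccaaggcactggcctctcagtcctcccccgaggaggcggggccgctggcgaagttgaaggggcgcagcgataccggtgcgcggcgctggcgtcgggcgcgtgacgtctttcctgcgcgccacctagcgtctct
ATP5F1C, chr10:7787927-7788176: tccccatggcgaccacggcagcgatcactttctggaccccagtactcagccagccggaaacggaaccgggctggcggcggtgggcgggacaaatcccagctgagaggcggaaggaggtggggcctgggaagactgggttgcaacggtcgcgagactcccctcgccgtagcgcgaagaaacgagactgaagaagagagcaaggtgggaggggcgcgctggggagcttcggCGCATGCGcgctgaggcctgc
SDHD, chr11:112086623-112086872: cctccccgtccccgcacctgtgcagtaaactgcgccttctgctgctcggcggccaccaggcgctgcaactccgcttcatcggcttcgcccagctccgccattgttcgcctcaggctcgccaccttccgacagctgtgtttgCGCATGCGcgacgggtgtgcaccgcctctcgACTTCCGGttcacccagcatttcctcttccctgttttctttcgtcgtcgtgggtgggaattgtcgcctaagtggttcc
NRF1 and ETS-family factors are known as regulators of nuclear genes for mitochondrial proteins. RefSeq promoters, 250 bases before to 50 after the start, were matched for 68 of the 82 genes. The NRF1 letters were present on either strand in 14.7% of these, against 2.19% of 27305 promoters, and the ETS letters in 14.7%, against 4.44%. The YY1 core AAGATGGCG was found in 10.3% of the subunit promoters and 1.85% of all, and the CRE motif TGACGTCA in 5.88% and 1.98%. The motifs are not parts of each other, and 27 of the 68 promoters held at least 1 of the 4, 39.7% against 9.63% of all promoters. A match is a run of letters and not a shown binding site. NDUFV1 held none of the 4 in its window, ATP5F1C held the NRF1 letters shortly before the start, and SDHD held both NRF1 and ETS letters.

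Values are deposited log2 intensities, which ran from 5.32 to 15.1 with a median of 6.40, and 42.9% to 43.0% of probes on each array lay above a background level of 6.55. A gene was tested where a probe exceeded that level on at least 2 arrays, which left 12244 genes, each read from its brightest probe. Of the 82 subunit genes 77 were tested, and 75 of these were above background on all 8 arrays. Their median level was 12.43, against 8.41 for all genes tested. Brightness also depends on the probe, so it gives no order of abundance among genes. The 3 brightest were ATP5F1B, the catalytic beta subunit of the ATP synthase, and COX7C and COX8A, small subunits of complex IV.

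The 5 genes not above background on any array were COX4I2, COX6A2, COX6B2, COX7A1 and COX8C, the lung, muscle or testis isoforms of complex IV subunits, with probe values between 5.64 and 6.48. COX7B2, another isoform known from testis, passed on only 2 arrays. It read 6.28 and 6.46 in M3-2, 6.20 and 6.52 in M3-1, 6.69 and 6.55 in the primary tumour derivative, and 6.29 and 6.59 in the parental line. These values straddle the background level and the groups overlap. NDUFS6, a complex I subunit of the electron input arm, was the remaining tested gene that was not above background everywhere. Its 4 arrays above it were those of M3-2 and M3-1.

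The labelled cell type was checked once. Of 8 measured prostate luminal markers 7 were above background in all 4 groups, KLK3 being below it on every array, and all 5 endothelial markers were below it on every array. Of 7 leukocyte markers 3 were above it on both arrays of each group, but 2 in M3-2. The adipocyte marker LEP was above it in all groups, and the muscle marker ACTA1 in the 3 derivatives. Luminal TMPRSS2 was lower in M3-1 and M3-2 averaged than in the parental line by 0.93 (limma adjusted p = 0.000213). KRT8 and KRT18 were higher by 0.63 and 0.91. The mean level of 8 fibroblast and smooth muscle markers was 7.53 to 7.54 in M3-2, 7.50 to 7.55 in M3-1, 7.05 to 7.14 in the primary tumour derivative and 6.85 to 6.87 in the parental line. COL1A2, COL3A1 and PDGFRB of that list were below background on every array. Above background on both arrays of a group were 5 of the 8 in M3-2 and in M3-1, and 4 in the primary tumour derivative and in the parental line. LUM, which encodes the matrix proteoglycan lumican, carried most of that spread. It read 11.52 and 11.85 in M3-2, 11.41 and 11.17 in M3-1, 8.01 and 8.76 in the primary tumour derivative, and 6.55 and 7.21 in the parental line. Without LUM the mean of the other 7 was 6.93 to 6.96 in M3-2, 6.97 or more in M3-1, 6.91 on both arrays of the primary tumour derivative and 6.82 to 6.89 in the parental line. Of the 5 tested, LUM, DCN and TAGLN (3 genes) were called higher in the metastatic lines M3-1 and M3-2 averaged than in the parental line. This is 60%, beside 13.8% of all genes. DCN was higher by 0.55 (limma adjusted p = 0.00338) and TAGLN by 0.52 (limma adjusted p = 0.00708), and in M3-2 alone by 0.80 and 0.76. In M3-1 alone only LUM was called. ACTA2, a smooth muscle actin, went the other way and fell by 0.50 in M3-2 relative to parental (limma adjusted p = 0.0218). The part of these markers in any result below was not tested.

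The first question was whether the subunit genes of the derivatives differ from those of the parental line. At an adjusted p below 0.05 (limma, Benjamini-Hochberg over 12244 genes) 0 of the 77 tested subunit genes were called in any comparison with the parental line. In the primary tumour derivative this stands against 6.89% of all genes called, and in M3-1 and M3-2 averaged, called the metastatic lines below, against 13.8%. For M3-1 alone the share of all genes was 9.93% and for M3-2 alone 12.2%. In bulk RNA, fewer cells of a type and less RNA per cell cannot be told apart, and this holds for every difference given here.

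At an unadjusted p below 0.05, limma gave 4 of the 77 genes in the primary tumour derivative against parental, 3 higher and 1 lower, or 5.19%, beside 20.1% of all genes. In the metastatic lines it gave 5, all lower, or 6.49%, beside 24.6%. M3-1 had 6, 1 higher and 5 lower, or 7.79%, beside 20.6%, and M3-2 had 1, lower, or 1.30%, beside 23.1%. Each share lay below that of all genes, and the difference between the shares was not tested. Among the 2988 genes with a mean level above 10, the share called at an adjusted p below 0.05 was 5.89% for the primary tumour derivative, 10.9% for the metastatic lines, 7.8% for M3-1 and 9.57% for M3-2.

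The differences themselves were small. The median over the 77 genes was 0.06 (log2) in the primary tumour derivative against parental, beside 0.00 for all genes, and 0.03 in the metastatic lines, beside 0.00. M3-1 had a median of 0.05 and M3-2 one of 0.01. The SD of the differences over the subunit genes was 0.16 for the primary tumour derivative and 0.14 for the metastatic lines, beside 0.31 and 0.36 over all genes. The subunit genes were also brighter, at a median level of 12.43 against 8.41, and the SDs were not compared at like brightness. A missed threshold does not show equality, so the 95% intervals matter here. In the primary tumour derivative they lay wholly within 1.5-fold of the parental level for 63 of the 77 genes. This is 81.8%, beside 74.8% of all genes. In the metastatic lines they did so for 72, or 93.5%, beside 80% of all genes. Within 2-fold lay 75 and 77, beside 11827 and 11704 of all 12244 genes.

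**Figure D1:**
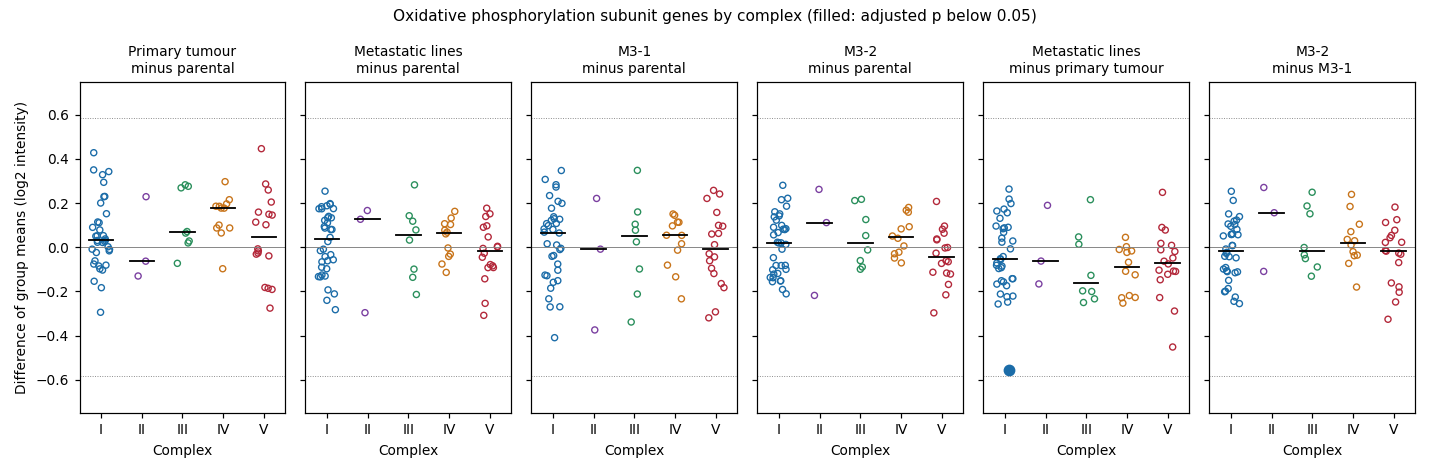
Differences of group means (log2 intensity, vertical axis) for the 77 tested subunit genes by complex (horizontal axis) in each of the 6 comparisons; each point is 1 gene and a filled point has an adjusted p below 0.05. Nearly all points are open and the lowest is NDUFV1 at -0.55 in the metastatic lines against the primary tumour derivative.

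Complex I was represented by all 36 of its listed genes. Against parental its median difference was 0.03 in the primary tumour derivative, with 23 genes above 0, and 0.04 in the metastatic lines, with 19 above 0. Of all genes 50.9% and 50.2% lay above 0 in these comparisons. NDUFS7, an iron-sulfur subunit next to the ubiquinone site, read 11.73 and 11.73 in M3-2, 11.96 and 11.88 in M3-1, 12.02 and 11.98 in the primary tumour derivative, and 11.76 and 11.38 in the parental line. Both primary tumour arrays lay above both parental arrays, by 0.43 on average (SE 0.14, limma adjusted p = 0.0919). NDUFS1, the iron-sulfur subunit that takes electrons further from the flavin, had the lowest primary tumour difference, -0.29 (SE 0.13, limma adjusted p = 0.225).

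NDUFA5, an accessory subunit of the arm that reaches into the matrix, read 8.40 and 8.35 in M3-2, 8.21 and 8.04 in M3-1, 8.42 and 8.52 in the primary tumour derivative, and 8.33 and 8.73 in the parental line. M3-1 lay below both parental arrays, with a difference of -0.41 (SE 0.15, limma adjusted p = 0.109), while M3-2 lay between them. NDUFAB1, the mitochondrial acyl carrier protein, which also serves as a complex I subunit, had the highest M3-2 difference of its complex, 0.28 (SE 0.17, limma adjusted p = 0.359). Its M3-2 arrays stood at 13.84 and 13.36, against 13.41 and 13.23 in the parental line, so that the groups overlapped.

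Complex II, which is also the succinate dehydrogenase of the citric acid cycle, was read through SDHA, SDHC and SDHD. SDHA, the flavoprotein that oxidises succinate, read 10.82 and 10.93 in M3-2, 10.61 and 10.82 in M3-1, 11.00 and 10.92 in the primary tumour derivative, and 11.26 and 10.92 in the parental line. Parental replicate 1 was the highest array, and the metastatic lines differed from parental by -0.30 (SE 0.12, limma adjusted p = 0.15). By a dimmer SDHA probe, also above background, that difference was -0.07. SDHC, a membrane anchor, read 11.01 and 11.12 in the primary tumour derivative, against 10.71 and 10.96 in the parental line. The arrays did not overlap on this probe. The difference was 0.23 (SE 0.16, limma adjusted p = 0.476), beside a gap of 0.24 between the parental arrays. On a dimmer SDHC probe the parental arrays, at 9.15 and 9.74, enclosed those of the primary tumour derivative, at 9.66 and 9.61.

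SDHD, the other membrane anchor, read 11.59 and 11.19 in M3-2, 11.12 and 11.11 in M3-1, 11.01 and 11.12 in the primary tumour derivative, and 10.99 and 11.26 in the parental line. Only M3-2 replicate 1 stood apart from the rest. The difference of M3-2 from parental was 0.26 (SE 0.15, limma adjusted p = 0.343).

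Complex III had a median of 0.07 in the primary tumour derivative and 0.06 in the metastatic lines, relative to parental. Of its 8 genes 7 and 5 lay above 0, beside 50.9% and 50.2% of all genes. In the primary tumour derivative this count was 3 without parental replicate 1 and 5 without parental replicate 2. UQCRC2, a core subunit facing the matrix, read 11.09 and 11.01 in M3-2, 10.83 and 10.78 in M3-1, 11.08 and 11.24 in the primary tumour derivative, and 11.10 and 11.19 in the parental line. Both M3-1 arrays were the lowest of the 8, at a difference of -0.34 from parental (SE 0.12, limma adjusted p = 0.12). UQCRH, the hinge protein near cytochrome c1, had the highest metastatic difference of the complex, 0.28 (SE 0.18, limma adjusted p = 0.382). Probes of UQCRH and of its close copy UQCRHL may not be separable, and its parental arrays lay far apart, at 13.71 and 14.42.

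The complex IV median of the primary tumour derivative minus the parental line was 0.18, with 11 of its 12 tested genes above 0, beside 50.9% of all genes. None of the 12 passed the test, with limma giving 1 at an unadjusted p below 0.05. That gene was COX8A, a small structural subunit, which read 14.65 and 14.60 in the primary tumour derivative, against 14.30 and 14.35 in the parental line. Its arrays did not overlap, and the difference was 0.30 (SE 0.12, limma adjusted p = 0.189). The complex IV shift depended on the parental array. Without parental replicate 1 the primary tumour median was 0.01 with 6 of the 12 genes above 0, and without parental replicate 2 it was 0.29 with 11 above 0. Without primary tumour replicate 2 the median was 0.14, with 8 above 0. The metastatic lines had a complex IV median of 0.06 with 7 of 12 genes above 0, and it was -0.08 with 4 above 0 without parental replicate 1 and 0.09 with 10 above 0 without parental replicate 2.

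COX4I1, the common isoform of a regulatory subunit, was the highest complex IV gene in the metastatic lines relative to parental, at 0.16 (SE 0.11, limma adjusted p = 0.434). COX6A1, the widely expressed counterpart of the muscle isoform COX6A2, read 13.12 and 13.24 in M3-2, 12.87 and 13.01 in M3-1, 13.09 and 13.07 in the primary tumour derivative, and 13.24 and 13.11 in the parental line. M3-1 was the low group, at -0.23 from parental (SE 0.13, limma adjusted p = 0.331).

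Complex V had a median of 0.05 in the primary tumour derivative and -0.02 in the metastatic lines, relative to parental. ATP5F1C, the gamma subunit that forms the turning central stalk, read 12.47 and 12.25 in M3-2, 12.29 and 12.39 in M3-1, 12.46 and 12.48 in the primary tumour derivative, and 12.63 and 12.69 in the parental line. Both parental arrays lay above all 6 derivative arrays. The metastatic difference was -0.31 (SE 0.11, limma adjusted p = 0.0872) and that of the primary tumour derivative -0.19 (SE 0.13, limma adjusted p = 0.477).

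ATP5PF, a subunit of the stationary peripheral stalk, had the highest primary tumour difference of all 77 genes, 0.45 (SE 0.30, limma adjusted p = 0.473). Its arrays read 12.18 and 13.08 in M3-2, 12.96 and 12.95 in M3-1, 12.96 and 13.54 in the primary tumour derivative, and 12.32 and 13.28 in the parental line. The arrays lay 0.90 apart in M3-2 and 0.97 apart in the parental line, more than any of its group means differed. ATP5IF1, which by its symbol falls under the rule although it is the inhibitor of the synthase and no subunit, was 0.20 higher in the primary tumour derivative (SE 0.16, limma adjusted p = 0.542).

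**Figure D2:**
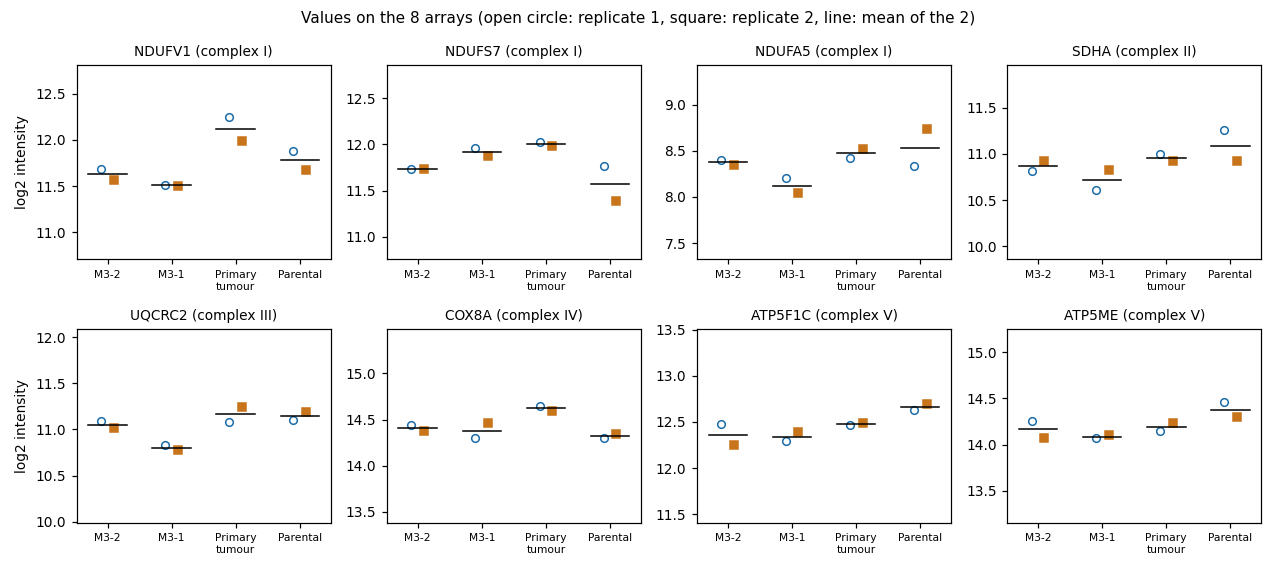
Log2 intensity (vertical axis) of 8 subunit genes on each array, with M3-2, M3-1, the primary tumour derivative and the parental line from left to right; open circles are replicate 1, squares replicate 2 and lines the mean of the 2. NDUFV1 is highest in the primary tumour derivative at 12.25 and 11.99, and ATP5F1C is highest in the parental line at 12.63 and 12.69.

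The metastatic lines were next set against the primary tumour derivative. Of the 77 tested subunit genes 1 was called, lower in the metastatic lines, where 11.8% of all genes were called (limma, adjusted p below 0.05). At an unadjusted p below 0.05 there were 4, 1 higher and 3 lower, or 5.19% beside 24.3% of all genes. The median difference was -0.07, beside -0.01 for all genes. Of the 77 genes 26 lay above 0, or 33.8% beside 48.8% of all genes. For 71 of the 77 the 95% interval lay within 1.5-fold, or 92.2% beside 80.5% of all genes. Because the primary tumour and parental comparisons share arrays with this one, the 3 sets of differences are not independent.

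The called gene was NDUFV1, the flavoprotein subunit of complex I where NADH gives up its electrons. It read 11.69 and 11.56 in M3-2, 11.51 and 11.50 in M3-1, 12.25 and 11.99 in the primary tumour derivative, and 11.88 and 11.68 in the parental line. All 4 metastatic arrays lay below both primary tumour arrays, and M3-2 replicate 1 lay just above parental replicate 2. The metastatic lines minus the primary tumour derivative came to -0.55 (SE 0.12, limma adjusted p = 0.00707), or 0.681 of its level.

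Neither side of that difference was called against the parental line. NDUFV1 was 0.34 higher in the primary tumour derivative (SE 0.14, limma adjusted p = 0.17) and the metastatic lines differed from parental by -0.21 (SE 0.12, limma adjusted p = 0.311). The NDUFV1 call was lost by limma without primary tumour replicate 1, where the difference was -0.42. Of all genes 4.8% were then called, beside 11.8% with all arrays. Primary tumour replicate 2, at 11.99, still lay above every metastatic array. A group cut to 1 array has a larger standard error, so the lost call does not show that replicate 1 carried the difference. Among bright genes, as above, 9.3% were called with all arrays.

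By complex, the medians of the metastatic lines minus the primary tumour derivative were -0.05 for complex I, -0.06 for complex II, -0.16 for complex III, -0.09 for complex IV and -0.07 for complex V. After NDUFV1 the lowest was ATP5PF at -0.45 (SE 0.26, limma adjusted p = 0.327). The highest was NDUFA9, an accessory subunit near the ubiquinone site, at 0.26.

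When each of the 102 subunit probes above background was tested on its own, 2 were called, both in the metastatic lines against the primary tumour derivative, where 10.2% of the 16665 probes tested were. In the other comparisons 0 subunit probes were called by limma, beside 5.86% of all probes in the primary tumour derivative against parental, 12.2% in the metastatic lines, 8.83% in M3-1, 11.2% in M3-2 and 1.99% in M3-2 against M3-1. One was the NDUFV1 probe. The other was a dimmer probe for ATP5MC2, which encodes the c subunit of the rotating ring of the synthase. It read 8.27 and 8.38 in M3-2, 8.34 and 8.33 in M3-1, and 7.99 and 7.89 in the primary tumour derivative, against 8.29 and 8.30 in the parental line, so the primary tumour derivative was the low group. The metastatic difference was 0.39 by that probe (limma adjusted p = 0.0325 over all probes) and 0.25 by the brightest ATP5MC2 probe (limma adjusted p = 0.288). The c subunit has several genes of near-identical protein, and probes may not keep them apart. Of 21 genes with several probes above background, 11 had all of them on the same side of 0 in this comparison.

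Between the metastatic lines, M3-2 against M3-1, 0 of 77 subunit genes were called and 0 had an unadjusted p below 0.05 by limma, beside 2.47% and 10.3% of all genes. The median difference was -0.01. The highest was SDHD at 0.27 (SE 0.15, limma adjusted p = 0.618) and the lowest ATP5PF at -0.33 (SE 0.30, limma adjusted p = 0.834). UQCRC2 differed by 0.25, COX6A1 by 0.24 and NDUFC2, a membrane arm subunit of complex I, by -0.26. For 67 of the 77 genes the interval lay within 1.5-fold, or 87% beside 84.2% of all genes.

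The arrays of a group also differed among themselves in subunit genes. A gap of over 0.5 (log2) between the 2 arrays was found for 5 of the 77 genes in M3-2 (6.49%, beside 3.04% of all genes), 0 in M3-1 (beside 0.204%), 1 in the primary tumour derivative (1.30%, beside 1.47%) and 12 in the parental line (15.6%, beside 8.81%). The SD of the gaps over the 77 genes was 0.29 in M3-2, 0.13 in M3-1, 0.20 in the primary tumour derivative and 0.41 in the parental line. The genes named in this paragraph and the next were chosen after their values were seen. Of the 12 parental gaps 11 had replicate 2 higher, in ATP5MG, ATP5MJ, ATP5PD, ATP5PF, COX7A2, COX7A2L, COX7B, NDUFA1, NDUFB3, UQCRB and UQCRH, and NDUFB7 had it lower.

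UQCRB, a ubiquinone-binding subunit of complex III, had the widest gap. It read 10.86 and 11.40 in M3-2, 11.21 and 11.23 in M3-1, 11.18 and 11.67 in the primary tumour derivative, and 10.42 and 11.87 in the parental line. The parental arrays were thus both the lowest and the highest of the 8. COX7B, a small subunit of complex IV, read 12.34 and 12.59 in M3-2, 12.48 and 12.49 in M3-1, 12.27 and 12.67 in the primary tumour derivative, and 11.73 and 13.02 in the parental line. NDUFB3, an accessory subunit of the membrane arm of complex I, had parental arrays at 11.93 and 12.99.

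Of the 11 genes 6 had more than 1 probe above background, and in 4 of these every such probe had replicate 2 higher. The 3 ATP5PF probes read 9.51 and 10.97, 12.21 and 13.24, and 12.32 and 13.28 on parental replicates 1 and 2. Both probes of NDUFB3, UQCRH and ATP5PD also had replicate 2 higher. The second ATP5MG probe did not share the gap of the first, at 10.02 and 9.95 against 12.97 and 13.50. Neither did the dimmer UQCRB probes, at 7.29 and 7.32 and at 6.68 and 6.65.

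The 11 genes with a wide upward gap in the parental line also had replicate 2 higher in M3-2, 11 of 11, and in the primary tumour derivative, 11 of 11, but in 4 of 11 in M3-1. Of the 829 genes of the whole table with such a parental gap, 67.3% had replicate 2 higher in M3-2, 93.4% in the primary tumour derivative and 30.5% in M3-1. Over the 77 genes, the gaps of the primary tumour derivative and the parental line had a correlation of 0.74 across genes, those of M3-2 and the parental line 0.52, and those of M3-1 and the parental line -0.15. Over all 12244 genes these were 0.52, 0.14 and -0.18. Genes are not independent replicates, and the points share their arrays.

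**Figure D3:**
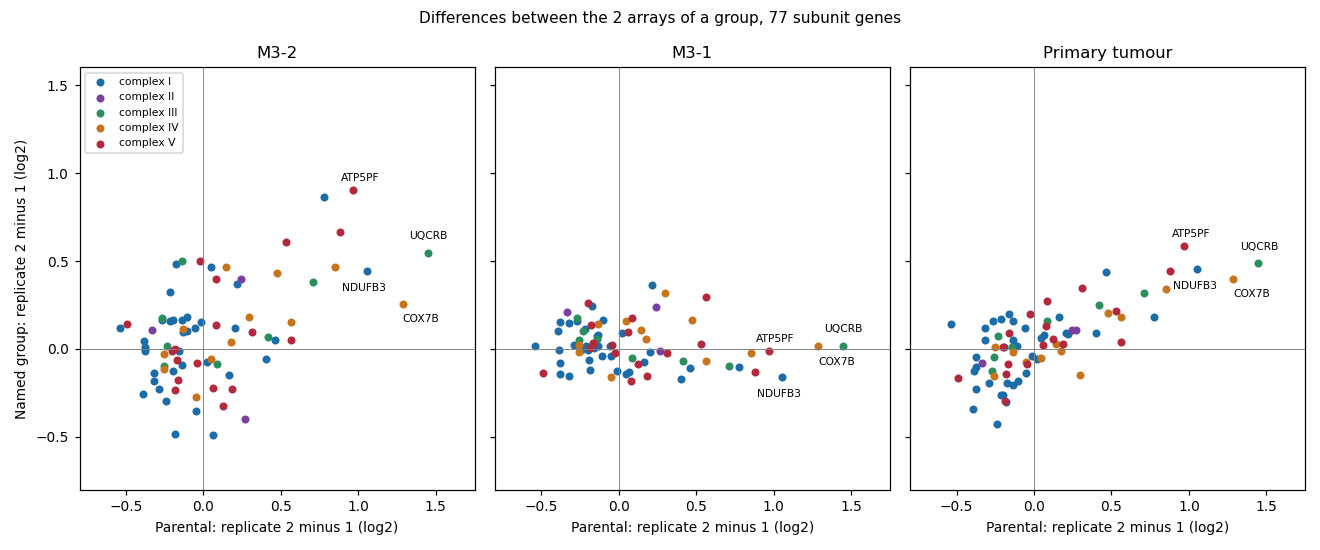
Gap between the arrays of a group (replicate 2 minus replicate 1, log2) for 77 subunit genes, with the parental line on the horizontal axis and M3-2, M3-1 or the primary tumour derivative on the vertical axis; colours are complexes. UQCRB, COX7B, ATP5PF and NDUFB3 lie to the right in all panels, above 0 in M3-2 and the primary tumour derivative and within 0.2 of 0 in M3-1.

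The median level of the 77 genes was 12.34 and 12.51 on the M3-2 arrays, 12.38 and 12.46 on those of M3-1, 12.40 and 12.48 on those of the primary tumour derivative, and 12.32 and 12.48 on those of the parental line. Replicate 2 was higher in M3-2, the primary tumour derivative and the parental line alike for 22 of the 77 genes (28.6%, beside 16.2% of all genes). It was higher in none of these 3 groups for 15 (19.5%, beside 2448 of all 12244 genes, or 20%). NDUFB10, a membrane arm subunit of complex I, was among those 15, with parental arrays at 13.36 and 12.97. The cause of the gap was not tested.

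**Figure D4:**
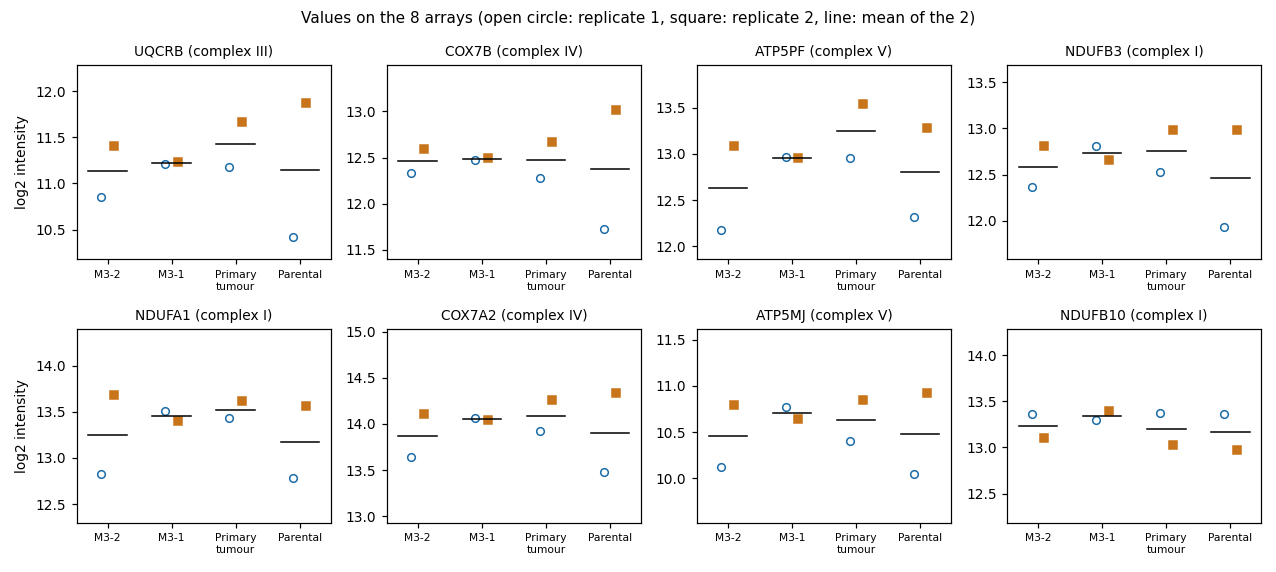
Log2 intensity (vertical axis) of 8 subunit genes with gaps between the arrays of a group, with M3-2, M3-1, the primary tumour derivative and the parental line from left to right; open circles are replicate 1, squares replicate 2 and lines the mean of the 2. In UQCRB the parental arrays, at 10.42 and 11.87, enclose the other 6, and the M3-1 arrays lie close together in every panel.

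This gap bears on the comparisons with the parental line. Leaving out parental replicate 1 gave 1 called subunit gene in the primary tumour derivative, NDUFS7, where 11.4% of all genes were called, and 5 in the metastatic lines, where 15.9% were: COX7B, NDUFA5, NDUFB7, NDUFS7 and UQCRB. Leaving out parental replicate 2 instead gave 5 in the primary tumour derivative (9.24% of all genes), ATP5PF, COX7B, NDUFB3, UQCRB and UQCRH. In the metastatic lines it gave 6 (16.8% of all genes), COX7A2L, COX7B, NDUFB3, SDHA, UQCRB and UQCRH. COX7B in the metastatic lines was -0.54 against parental replicate 2 alone and 0.75 against parental replicate 1 alone, both past the threshold, so its direction depended on the parental array used. UQCRB did the same, at -0.69 and 0.76. The small medians of the complexes turned as well. In the primary tumour derivative, without parental replicate 1 and without parental replicate 2 in turn, they were 0.09 and -0.03 for complex I, -0.01 and 0.10 for complex III, and -0.07 and 0.07 for complex V. In the metastatic lines they were 0.06 and -0.04 for complex I, -0.04 and 0.01 for complex III, and -0.09 and 0.00 for complex V.

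M3-1 against parental gave 3 subunit genes without parental replicate 1 (NDUFA5, NDUFB7 and NDUFS7, beside 13% of all genes) and 5 without parental replicate 2 (COX7B, NDUFB3, SDHA, UQCRB and UQCRH, beside 13.1%). M3-2 against parental gave 2 without parental replicate 1 (COX7B and UQCRB, beside 14.7%) and 5 without parental replicate 2 (COX7A2L, COX7B, NDUFB3, UQCRB and UQCRH, beside 16.4%).

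Genes that work beside the complexes were compared by list. Among 52 tested assembly factors, LYRM7, which helps insert the iron-sulfur protein of complex III, fell by 0.49 in the primary tumour derivative and by 0.36 in the metastatic lines, relative to parental. NDUFAF7, a methyltransferase that acts on complex I, fell by 0.65 in the primary tumour derivative, although its probes did not move alike (the mean over its probes was -0.08). COA1, a factor for complex IV assembly, fell by 0.58 in the metastatic lines relative to parental (limma adjusted p = 0.00611), by 0.85 in M3-2 (limma adjusted p = 0.00106), and differed by -0.30 in M3-1 (limma adjusted p = 0.26). When the probes of COA1 were averaged these differences were -0.24 in the metastatic lines (limma adjusted p = 0.164) and -0.41 in M3-2 (limma adjusted p = 0.0429). Against parental, 2 of the 52 factors were called in the primary tumour derivative, or 3.85% beside 6.89% of all genes, and 2 in the metastatic lines, or 3.85% beside 13.8%. M3-2 had 1, or 1.92% beside 12.2%, and M3-1 had 0, beside 9.93%.

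Of 76 mitochondrial ribosomal protein genes, 1 was called in each of the primary tumour derivative (MRPL41, 0.49 higher) and the metastatic lines (MRPL52, 0.48 higher) against parental. This is 1.32% of the list each time, beside 6.89% and 13.8% of all genes. The parental gap was over 0.5 for 12 of these 76, or 15.8%. MRPL52 was 0.29 higher without parental replicate 2 (limma adjusted p = 0.137). Of 18 electron carrier genes, 0 were called against parental by limma, and 3 fell in the metastatic lines relative to the primary tumour derivative, 16.7% beside 11.8% of all genes. These were COQ2, COQ6 and COQ10B, which serve the making or handling of ubiquinone, with differences of -0.41, -0.35 and -0.42.

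Among 23 genes of the citric acid cycle and pyruvate entry, 4 were called in the metastatic lines against parental, 1 higher and 3 lower, or 17.4% beside 13.8% of all genes. MPC1 and MPC2, the partners of the mitochondrial pyruvate carrier, went opposite ways: MPC1 fell by 0.71 (limma adjusted p = 0.00259) and MPC2 rose by 0.53 (limma adjusted p = 0.00488). PDHB, the beta subunit of the enzyme that turns pyruvate into acetyl-CoA, read 11.89 and 12.07 in M3-2, 12.04 and 11.95 in M3-1, 12.41 and 12.41 in the primary tumour derivative, and 12.45 and 12.44 in the parental line. All 4 metastatic arrays lay below the other 4, at -0.45 from parental (limma adjusted p = 0.0111). PDK3, a kinase that switches that enzyme off, fell by 0.75 as well (limma adjusted p = 0.000471), and its difference was -0.42 as the mean of its probes (limma adjusted p = 0.0146).

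PDK4, another such kinase, read 10.81 and 10.81 in M3-2, 9.64 and 9.51 in M3-1, 7.96 and 8.59 in the primary tumour derivative, and 9.23 and 10.28 in the parental line. It was low in the primary tumour derivative and high in M3-2. It fell by 1.48 in the primary tumour derivative relative to parental (limma adjusted p = 0.00347) with a difference of -0.96 without parental replicate 2. It was the 1 gene of this list called between M3-2 and M3-1, at 1.24 (limma adjusted p = 0.0221). In the metastatic lines against the primary tumour derivative 6 of the 23 genes were called, 1 higher (PDK4) and 5 lower (IDH2, MPC1, PC, PDHB and PDK3), or 26.1% beside 11.8% of all genes.

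Among 8 tested carriers and regulators, 1 gene was called against parental in the primary tumour derivative and in the metastatic lines. This is 12.5% of the list each time, beside 6.89% and 13.8% of all genes. The gene was UCP2, a carrier of the inner membrane named for uncoupling. It read 8.71 and 8.70 in M3-2, 8.20 and 8.31 in M3-1, 8.11 and 7.94 in the primary tumour derivative, and 7.62 and 7.33 in the parental line. The groups did not overlap. UCP2 was higher than parental by 1.00 in the metastatic lines (limma adjusted p = 4.06e-05) and by 0.55 in the primary tumour derivative (limma adjusted p = 0.0259).

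Of 14 genes of mitochondrial biogenesis, 0 were called in the primary tumour derivative, beside 6.89% of all genes, and 1 in the metastatic lines against parental, or 7.14% beside 13.8%. That was PPARGC1A, a coactivator of mitochondrial genes, which was above background only on the parental arrays. These read 6.57 and 6.97, the first barely above the level of 6.55, so no fold is given. It was tested only because of these arrays, so its call follows in part from the filter. Its call was lost without parental replicate 2 (limma adjusted p = 0.183). In M3-2 against parental 2 of the 14 were called, PPARGC1A and GABPB1, or 14.3% beside 12.2% of all genes. GABPB1, a partner of the ETS factor GABPA, was 0.44 higher in M3-2 than in the parental line (limma adjusted p = 0.0378). Its call was lost under 10 of the 18 alternatives described below. Among 18 glycolysis genes the primary tumour derivative had 3 called against parental, 16.7% beside 6.89%. HK2, which phosphorylates glucose, rose by 0.92 and SLC2A1, a glucose transporter, by 0.60, while ENO2, a neuronal enolase isoform, fell by 0.64. In the metastatic lines HK2 differed from parental by 0.17 (limma adjusted p = 0.38), and it fell by 0.74 relative to the primary tumour derivative.

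Many calls in these other lists were lost when 1 array was left out. A group cut to 1 array has a larger standard error, so a lost call does not show that 1 array carried the difference. In the primary tumour derivative against parental 10 genes were called, and HK2 and MPC2 (2 genes) kept their call whichever of the 8 arrays was left out. In the metastatic lines against parental 6 of 10 did so: COA1, ENO2, MPC1, MPC2, PDK3 and UCP2. In the metastatic lines against the primary tumour derivative these were 2 of 14, HK2 and PDK4, so the calls of COQ2, COQ6, COQ10B, IDH2, MPC1, PC, PDHB and PDK3 there were each lost without at least 1 array. PDK4 between M3-2 and M3-1 lost its call without any one of the 4 arrays compared, although its difference stayed between 1.18 and 1.30. The share of all called genes that kept their call is not given here.

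**Figure D5:**
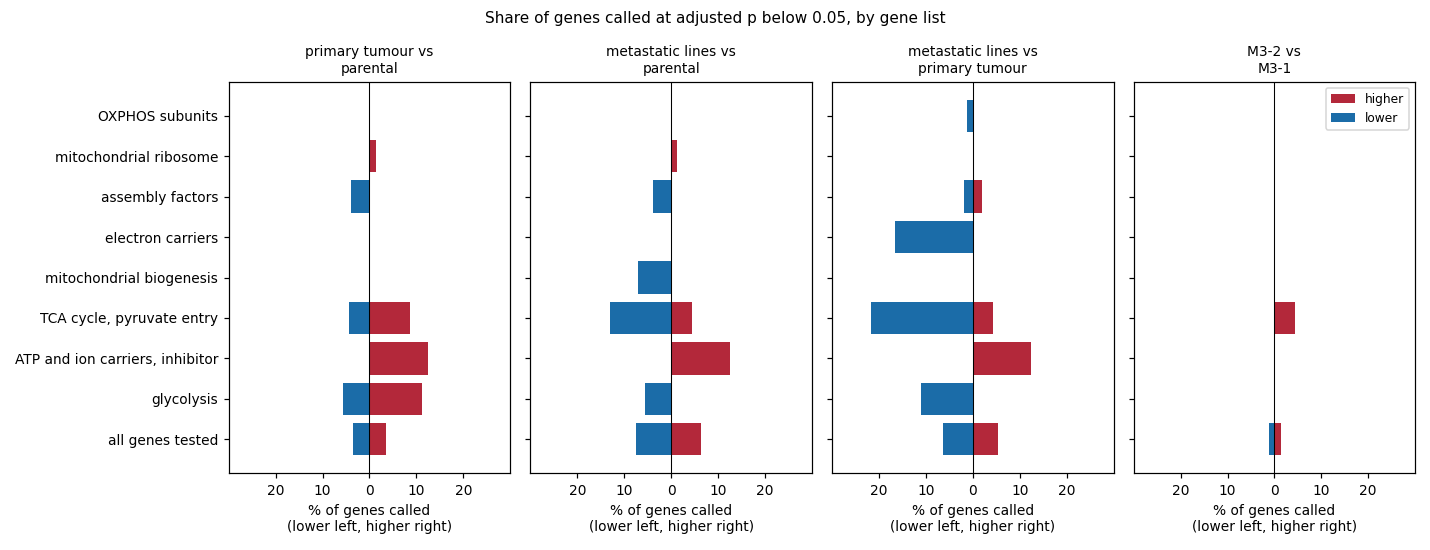
Share of the tested genes called at an adjusted p below 0.05 (horizontal axis, percent, lower to the left and higher to the right) for the subunit genes, the other mitochondrial and glycolysis lists and all genes tested, in 4 comparisons. The subunit row is empty except for NDUFV1 in the metastatic lines against the primary tumour derivative, where 11.8% of all genes were called.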

How the data were processed

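RNA of 8 samples was column-purified, converted to biotinylated cRNA and hybridised to single-colour bead arrays, as the labels' protocols state. The authors deposited log2 intensities for 47320 probes. For the software, background correction and normalization the entry is: not given in the sources used here. The arrays share 1 distribution, differing by at most 0.0119 at any rank, so a shift of all genes could not be seen. Background was not subtracted to zero, which understates folds of dim genes. A deposited table without normalization was not used, since its 16 columns match no labels.

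Platform annotation gave 1 symbol for 30112 probes, several for 8 and none for 17200. The most frequent value, 6.12, was taken as background, and its SD, 0.184, came from lower values. Probes had to exceed 6.55 on 2 arrays. The brightest such probe stood for each of 12244 genes. limma 3.58.1 in R 4.3.3 fitted 4 group means to all 8 arrays (4 residual and 9.35 prior degrees of freedom, code tested on simulated data). The metastatic lines are the mean of M3-1 and M3-2. The number of arrays limits the precision.

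Named genes were all those called, the largest absolute difference per complex and comparison (parental comparisons, and M3-2 against M3-1), the 3 brightest, tissue isoforms, and called genes of 7 other lists. The members, lists and rule were chosen with earlier results of these data known. The NRF1 and YY1 motifs were cut to cores after longer forms had been searched. Close copies (UQCRB, UQCRH, ATP5F1E, ATP5MC1 to ATP5MC3) may share probe signal. Alternatives covered filter, probe summary, normalization, samples fitted, array weights, variance prior, replicate block and leaving out each array.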

Additional observations from a re-analysis of the deposited data

Results flagged for a closer look

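NDUFV1 was marked because its difference from the parental line was not the same in the metastatic lines (-0.21) and in the primary tumour derivative (0.34), and the direct test of that difference, the metastatic lines against the primary tumour derivative, passed (limma adjusted p = 0.00707). All 4 metastatic arrays, 2 from each line, lay below both primary tumour arrays. These are the values that the test used, so their order is no separate support for it.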

How the results depend on the processing

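The 12 results over the set, a count of called genes and a median difference for each of 6 comparisons, were recomputed under 18 alternatives. No median moved by more than the SD between arrays of a group (0.092), yet several changed sign. Over single left-out arrays they ran from 0.03 to 0.10 in the primary tumour derivative against parental, from -0.03 to 0.05 in the metastatic lines, from -0.02 to 0.06 in M3-1 and from -0.05 to 0.05 in M3-2. The metastatic lines against the primary tumour derivative ran from -0.10 to -0.04, and M3-2 against M3-1 from -0.03 to 0.04. Leaving out 1 array at a time moved the count from 0 to between 0 and 5 genes (primary tumour derivative against parental), 0 and 6 (metastatic lines), 0 and 5 (M3-1) and 0 and 5 (M3-2), in each case only without a parental array. Against the primary tumour derivative the metastatic count lay between 0 and 1, at 0 without primary tumour replicate 1. M3-2 against M3-1 gave 0 throughout. Over single left-out arrays the metastatic minus parental difference ran from -0.54 to 0.75 for COX7B and from -0.69 to 0.76 for UQCRB, and the M3-2 minus parental difference from -0.55 to 0.74 and from -0.74 to 0.71. NDUFV1 ran from -0.69 to -0.42 with adjusted p from 0.000782 to 0.171, past the threshold in 17 of 18 alternatives. Of the genes named from other lists, GABPB1 (M3-2) and LYRM7 (metastatic lines) lost their call in 10 of 18 alternatives and COQ6 in 9.

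The labels number the arrays 1 and 2 in each group. They do not say what a number marks. Over all genes the gaps of M3-2, the primary tumour derivative and the parental line went together (correlations of 0.14 to 0.52), while those of M3-1 correlated with the other groups at -0.18 to -0.02. As not every pair exceeded 0.1, the numbers were not taken to pair the samples. With the replicate number as a block the metastatic count against the primary tumour derivative was 2 (NDUFV1 and ATP5PF, the second at an adjusted p of 0.0485), beside 14.5% of all genes, and the other 5 counts stayed at 0. With 2 arrays a group, standard errors near 0.14 limit what can be seen.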
